A study of Mus musculus with 6 samples.

Results

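BCL2 family genes whose regulation is not chiefly assigned to p53 were followed in the livers of Wtap-HKO mice and their Wtapflox/flox controls. The 9 genes, Bcl2, Bcl2l1, Mcl1, Bcl2l11, Bid, Bad, Bak1, Bik and Bmf, were taken by symbol from a table of 54777 genes, and all 9 passed the filter of a mean of 0.2 FPKM. FPKM is the number of fragments assigned to a gene, divided by gene length and by library size, so levels can be compared between genes. Wtap-HKO mice were Wtapflox/flox and carried 1 Alb-Cre allele, and Wtapflox/flox mice had the same floxed alleles without Cre. All were male mice of 8 weeks, C57BL/6 in the labels and C57BL/6J by the study's methods, on normal chow, with 3 livers in each group and 1 library for each liver. Cre under the albumin promoter acts in hepatocytes, and whether the other cells of the liver keep Wtap was not tested. The question was how loss of the RNA methylation complex subunit WTAP from hepatocytes relates to the transcripts of the genes that set the threshold for apoptosis.

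BCL2 family proteins decide whether the outer mitochondrial membrane is opened during apoptosis. The effectors BAK and BAX form the pores through which cytochrome c leaves. The pro-survival proteins BCL-2, BCL-XL and MCL-1 hold the effectors and the BH3-only proteins in check. BH3-only proteins such as BID, BIM, BAD, BIK and BMF sense damage or signals and either block the pro-survival proteins or activate the effectors directly. In the liver, MCL-1 and BCL-XL are both needed for hepatocyte survival, and BID links death receptors to the mitochondria after cleavage by caspase 8.

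The libraries held 15559250 to 18510477 reads assigned to genes. Whole-gene Wtap was 6.02 ± 0.368 FPKM in Wtap-HKO livers and 5.61 ± 0.317 FPKM in Wtapflox/flox livers (SD, n = 3 each). It was not called (log2 fold change 0.10 ± 0.0969 SE, limma adjusted p = 0.440), and since only a part of the gene is floxed, this value checks neither the deletion nor the labels. The tissue label could be checked, as all 8 hepatocyte markers were detected in every library. Their summed level was 27887 to 31962 FPKM in Wtap-HKO livers and 61743 to 69902 FPKM in Wtapflox/flox livers, and 7 of the 8 were lower. Of 11 tested leukocyte markers 5 were higher, with a sum of 27.7 to 36.8 FPKM in Wtap-HKO and 7.98 to 13.3 FPKM in Wtapflox/flox livers, and Ly6g was at 0 in some libraries. Of 10 macrophage markers 8 were higher, with a sum of 481 to 625 FPKM in Wtap-HKO and 247 to 297 FPKM in Wtapflox/flox livers. Of 8 endothelial markers 3, of 8 stellate cell markers 6 and of 5 tested cholangiocyte markers 3 were higher, and no marker of these 3 lists was at 0. By limma (adjusted p under 0.05) 19.5% of all tested genes were called higher and 20.7% lower. The cholangiocyte sums were 75.7 to 262 FPKM in Wtap-HKO and 39.7 to 63.4 FPKM in Wtapflox/flox livers. Most of each sum was Spp1 alone, at 69.1 to 241 FPKM in Wtap-HKO and 36.4 to 57.7 FPKM in Wtapflox/flox livers. Besides Spp1, Epcam and Sox9 were higher, while Krt19 and Krt7 were not called and overlapped between groups. The stellate sums were 32.5 to 109 FPKM in Wtap-HKO and 14.1 to 16.9 FPKM in Wtapflox/flox livers. The endothelial sums overlapped, at 46.7 to 53.2 FPKM in Wtap-HKO and 37.8 to 48.1 FPKM in Wtapflox/flox livers. The part of these cell types in the values below was not tested. In whole liver, fewer cells of a type and less RNA per cell cannot be told apart.

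The sign of a value depends on how the libraries are scaled. The deposited FPKM already carried a scaling between libraries, under which the median log2 fold change of all 16547 tested genes was 0.0054. With every library rescaled to an equal FPKM sum, called the TPM scale here, that median was 0.54. Log2 fold changes and counts of called genes are therefore given on the deposited scale first. For a named gene whose call or sign changes on the TPM scale, the value relative to its median is given as well. Wtap was called higher there (0.67, limma adjusted p = 0.00151), or 0.13 above the median. Of the markers above, 3 of 8 hepatocyte genes were lower on the TPM scale. Higher there were 7 of 11 leukocyte, 10 of 10 macrophage, 8 of 8 endothelial, 8 of 8 stellate and 4 of 5 cholangiocyte genes. Of all genes 48.8% were called higher there and 5.97% lower.

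Bak1 and Mcl1 rose in Wtap-HKO livers, and no member was called lower. These 2 of 9 members compare with 19.5% of all tested genes called higher and 20.7% called lower by limma (adjusted p under 0.05). At an unadjusted p under 0.05, 4 members were higher and 0 lower, against 24.4% of all tested genes higher and 25.2% lower at that threshold, and those 4 were Bcl2, Mcl1, Bid and Bak1. The same 4 were called higher and 0 lower by voom on rebuilt reads (19.8% of all genes higher, 21.6% lower) and over protein-coding genes alone (26.3% higher, 24.6% lower). With no filter on low values Bak1 alone was called, at 10.8% of all genes higher and 11.3% lower. The median log2 fold change of the members was 0.27, and 8 of the 9 values were positive, as were 8334 of all 16547 tested genes. The TPM scale called 6 members higher, all but Bcl2l11, Bad and Bmf, where 48.8% of all genes were called higher and 5.97% lower. All Wtap-HKO livers lay above all Wtapflox/flox livers for 4 members, against 26.8% of tested genes, and below them for 1 member, against 27.4%.

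**Figure D1:**
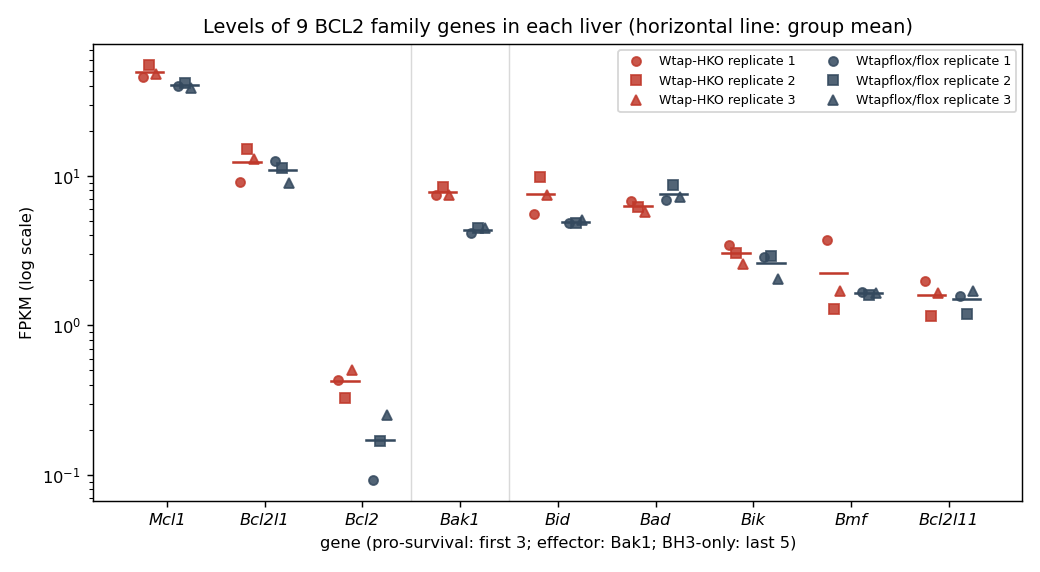
Level of each of the 9 genes (FPKM, log axis) in each liver, with Wtap-HKO livers left of Wtapflox/flox livers, points for livers and horizontal lines for group means. Bak1 was 7.41 to 8.40 FPKM in Wtap-HKO livers and 4.16 to 4.47 FPKM in Wtapflox/flox livers, while Bmf spread from 1.28 to 3.72 FPKM among Wtap-HKO livers.

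Bak1 (ENSMUSG00000057789, GRCm38 chromosome 17, 27019810 to 27029009, minus strand) encodes an effector that opens the mitochondrial membrane. It was measured at 7.41, 8.40 and 7.45 FPKM in Wtap-HKO replicates 1, 2 and 3, against 4.16, 4.46 and 4.47 FPKM in Wtapflox/flox replicates 1, 2 and 3. The groups did not overlap, and replicates 1 and 3 of Wtap-HKO lay close together with replicate 2 above them. Bak1 rose by a log2 fold change of 0.80 ± 0.0969 SE (95% interval 0.57 to 1.03, limma adjusted p = 0.00127), a fold of 1.74. It rose under each of the 16 alternative settings, with adjusted p between 0.00012 and 0.00802, and relative to the median of the TPM scale by 0.83. Its reads summed to 1167 in Wtap-HKO and 431 in Wtapflox/flox livers. In the M21 annotation 614 of the 2407 exonic bases of Bak1 (25.5%) lie under exons of 2 entries named Ggnbp1 on the opposite strand, 437 under the entry in the table and 177 under another that was not used here. The Ggnbp1 entry in the table was 1.21 FPKM in Wtap-HKO and 2.67 FPKM in Wtapflox/flox livers, and its part in the Bak1 values was not tested.

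The 250 bases before the RefSeq start of Bak1 and of Mcl1, the called members, are shown to place their promoters beside the values (RefSeq, GRCm38.p6). RefSeq starts Bak1 at 27028627, inside the gene as the deposited table bounds it (to 27029009), so the Bak1 stretch lies within those bounds. RefSeq starts Mcl1 at 95658721, before its deposited bound. The Bak1 stretch lies at chr17:27028628-27028877 on the minus strand and the Mcl1 stretch at chr3:95658471-95658720 on the plus strand. All letters are lower case, since neither held a searched motif.
Bak1 promoter: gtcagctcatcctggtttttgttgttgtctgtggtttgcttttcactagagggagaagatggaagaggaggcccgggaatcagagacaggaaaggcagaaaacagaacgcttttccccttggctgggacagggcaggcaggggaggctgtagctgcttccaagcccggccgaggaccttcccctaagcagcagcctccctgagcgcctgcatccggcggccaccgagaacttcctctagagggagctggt
Mcl1 promoter: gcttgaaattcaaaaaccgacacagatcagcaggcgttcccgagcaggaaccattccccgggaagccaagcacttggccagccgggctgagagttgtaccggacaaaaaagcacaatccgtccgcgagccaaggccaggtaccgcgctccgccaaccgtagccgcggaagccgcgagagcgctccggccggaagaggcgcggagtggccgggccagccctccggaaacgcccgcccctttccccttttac
RefSeq promoters of 300 bases (250 before and 50 after the start) were found for 8 of the 9 members, 14 promoters in all. The AP-1 type motif TGACTCA or TGAGTCA, both strands covered, was in 0 of the 14 and in 5.2% of all 32851 promoters. The FOXO type motif GTAAACA or TGTTTAC, both strands covered, was in 1 of the 14, a promoter of Bcl2l11, and in 3.65% of all promoters. The Bcl2l11 stretch is shown with the match in capitals, at chr2:128125800-128125829 on the plus strand.
Bcl2l11 FOXO type match: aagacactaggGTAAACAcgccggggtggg
The GC content of the 300-base window was 58.3% for Bak1 and 65.7% for Mcl1, against a median of 52.7% over all promoters.

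Among the pro-survival genes, Mcl1 was the most abundant member in every liver. Mcl1 (ENSMUSG00000038612, chromosome 3, 95658788 to 95663176, plus strand) encodes a short-lived protein that restrains BAK and BIM. It was measured at 46.1, 55.4 and 47.8 FPKM in Wtap-HKO replicates 1 to 3, against 40.2, 42.0 and 38.8 FPKM in Wtapflox/flox replicates 1 to 3. The lowest Wtap-HKO liver lay above the highest Wtapflox/flox liver. Mcl1 rose by 0.30 ± 0.0963 SE on the log2 scale (95% interval 0.07 to 0.53, limma adjusted p = 0.0453), a fold of 1.23. The call was lost when any of the libraries but Wtap-HKO replicate 1 was left out (adjusted p up to 0.110), with no filter on low values and with eBayes without a trend. Relative to the median of the TPM scale the difference was 0.35 (adjusted p on that scale, before centring, 2.57e-04).

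Bcl2l1 (ENSMUSG00000007659, chromosome 2, 152780668 to 152831728, minus strand) encodes BCL-XL, which holds BAX and BAK in check. Its values were 9.15, 15.1 and 12.9 FPKM in Wtap-HKO replicates 1 to 3, against 12.6, 11.2 and 8.95 FPKM in Wtapflox/flox replicates 1 to 3. The groups overlapped, with Wtap-HKO replicates 2 and 3 above every Wtapflox/flox liver and Wtap-HKO replicate 1 near the lowest of them. The log2 fold change was 0.16 ± 0.207 SE (limma adjusted p = 0.566), with a 95% interval wide enough to hold values of either sign (-0.33 to 0.65). On the TPM scale it was called higher (0.74, adjusted p = 0.0120), or 0.20 above the median of all genes.

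Bcl2 (ENSMUSG00000057329, chromosome 1, 106538178 to 106714274, minus strand), the founding pro-survival gene, was the least abundant member. It was measured at 0.432, 0.329 and 0.504 FPKM in Wtap-HKO replicates 1 to 3, against 0.0925, 0.170 and 0.252 FPKM in Wtapflox/flox replicates 1 to 3. All Wtap-HKO livers lay above all Wtapflox/flox livers, on 83, 65 and 92 reads in Wtap-HKO and 11, 22 and 32 reads in Wtapflox/flox. Counting error alone put the 65 reads of Wtap-HKO replicate 2 between 50.2 and 82.8 and the 32 reads of Wtapflox/flox replicate 3 between 21.9 and 45.2 (95% exact Poisson intervals, which cover counting error only). These intervals are in reads, and the sizes the authors divided by were 2.16e+07 and 1.38e+07 for these libraries. They therefore do not show whether the FPKM of these livers differ beyond counting error. The log2 fold change of 0.76 ± 0.288 SE (95% interval 0.07 to 1.44) missed the threshold (limma adjusted p = 0.0765). It passed with voom on rebuilt reads, with eBayes without a trend, over protein-coding genes alone and on the TPM scale (0.56 above the median). The size of the change depended on the pseudocount of 0.2, as the Wtapflox/flox mean was 0.172 FPKM. It was 0.28 with a pseudocount of 1, 1.14 with 0.05 and 1.34 with voom. Each Bcl2 level rests on few reads, and leukocyte markers were higher in the same livers. The part of other cell types in the Bcl2 values was not tested.

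Among the BH3-only genes, 0 of 5 were called by limma, where 19.5% of all tested genes were higher and 20.7% lower. Bid alone was higher at an unadjusted p under 0.05 (24.4% of all tested genes were) and by voom (19.8%). Bid (ENSMUSG00000004446, chromosome 6, 120891930 to 120916853, minus strand) is the link from death receptors to mitochondria. It was measured at 5.59, 9.79 and 7.50 FPKM in Wtap-HKO replicates 1 to 3, against 4.84, 4.86 and 5.07 FPKM in Wtapflox/flox replicates 1 to 3. The Wtapflox/flox livers lay within a narrow band, and the Wtap-HKO livers were spread above it. The log2 fold change was 0.58 ± 0.193 SE (95% interval 0.12 to 1.03), just outside the threshold (limma adjusted p = 0.0514). It was called with a filter of 1 FPKM, with voom, over protein-coding genes alone and without Wtap-HKO replicate 1 (adjusted p = 0.0117). It was also called on the TPM scale, at 0.61 above the median of all genes. Over the single libraries left out the log2 fold change was 0.38 to 0.78. Bid shares 628 exonic bases (17.7%) with Bcl2l13 on the opposite strand.

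Bad (ENSMUSG00000024959, chromosome 19, 6941861 to 6951898, plus strand), which binds BCL-2 and BCL-XL when it is not phosphorylated, was the only member with a negative value on the deposited scale. It was measured at 6.84, 6.19 and 5.75 FPKM in Wtap-HKO replicates 1 to 3, against 6.91, 8.63 and 7.20 FPKM in Wtapflox/flox replicates 1 to 3. The highest Wtap-HKO liver lay just below the lowest Wtapflox/flox liver. The log2 fold change was -0.26 ± 0.121 SE (95% interval -0.55 to 0.02) and was not called (limma adjusted p = 0.124). On the TPM scale the value turned positive (0.31), which was 0.23 below the median of all genes. Bad shares 524 bases (20.5% of its exons in M21) with Gpr137 on the opposite strand, which was 4.78 FPKM in Wtap-HKO and 6.11 FPKM in Wtapflox/flox livers. Bad has 2558 exonic bases in M21 but a deposited length of 2007 bases. Whether the shared bases lie in the part that was counted was not tested.

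Bik (ENSMUSG00000016758, chromosome 15, 83526862 to 83544634, plus strand), a BH3-only gene of the endoplasmic reticulum, was 3.48, 3.06 and 2.59 FPKM in Wtap-HKO replicates 1 to 3, against 2.86, 2.93 and 2.04 FPKM in Wtapflox/flox replicates 1 to 3. The groups overlapped, with a log2 fold change of 0.21 ± 0.177 SE (95% interval -0.21 to 0.63, limma adjusted p = 0.374). On the TPM scale Bik was called higher (0.76, limma adjusted p = 0.00964), or 0.23 above the median of all genes. Bcl2l11 (ENSMUSG00000027381, chromosome 2, 128126038 to 128162547, plus strand), which encodes BIM, was 1.97, 1.16 and 1.64 FPKM in Wtap-HKO replicates 1 to 3, against 1.58, 1.20 and 1.70 FPKM in Wtapflox/flox replicates 1 to 3. The Wtap-HKO livers spanned the whole Wtapflox/flox range, with a log2 fold change of 0.07 ± 0.219 SE (95% interval -0.45 to 0.59, limma adjusted p = 0.827). Leaving out Wtap-HKO replicate 1 or Wtapflox/flox replicate 2 turned the direction of the Bcl2l11 value, with -0.084 as the lowest.

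Bmf (ENSMUSG00000040093, chromosome 2, 118528757 to 118549687, minus strand), a BH3-only gene tied to the cytoskeleton, stood apart in its spread. It was measured at 3.72, 1.28 and 1.70 FPKM in Wtap-HKO replicates 1 to 3, against 1.69, 1.60 and 1.65 FPKM in Wtapflox/flox replicates 1 to 3. The highest liver was 2.91 times the lowest in Wtap-HKO and 1.05 times the lowest in Wtapflox/flox. Wtap-HKO replicate 1 lay far above the Wtapflox/flox range, replicate 3 just above it and replicate 2 below it. The log2 fold change was 0.27 ± 0.341 SE (95% interval -0.54 to 1.08, limma adjusted p = 0.558), and without Wtap-HKO replicate 1 it was -0.14.

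The Wtap-HKO livers did not differ from each other in the same way for all members. Replicate 1 was the lowest of the Wtap-HKO livers for Bcl2l1, Mcl1, Bid and Bak1 and the highest for Bcl2l11, Bmf, Bad and Bik. Replicate 2 was the highest for Bcl2l1, Mcl1, Bid and Bak1. Replicates are single mice and have no order, and these are descriptions of 3 libraries.

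**Figure D2:**
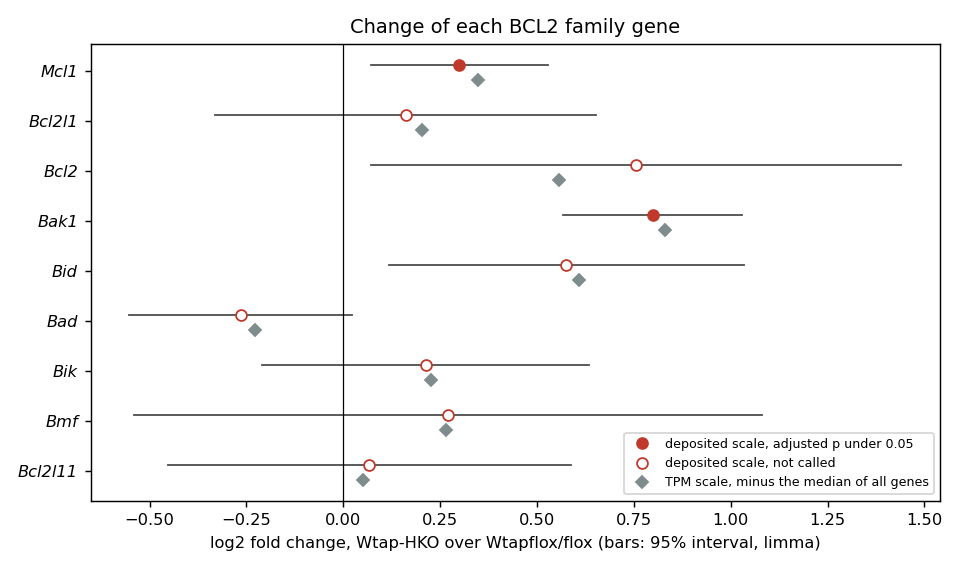
Log2 fold change (Wtap-HKO minus Wtapflox/flox) of each member with its 95% interval, on the deposited FPKM scale (circles, filled where called), and on the TPM scale after the median of all genes was subtracted (diamonds). The interval of Bak1 runs from 0.57 to 1.03, and Bad lies at -0.26 on the deposited scale and -0.23 on the other.

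Within a liver, the levels of the members relative to each other do not depend on how libraries are scaled. By group mean, Mcl1 was highest in both groups, followed by Bcl2l1, and Bik, Bmf, Bcl2l11 and Bcl2 were the lowest in this order. Between them the Wtap-HKO means ran Bak1, Bid and Bad, an order that no single Wtap-HKO liver had, and the Wtapflox/flox means ran Bad, Bid and Bak1. In Wtap-HKO livers the neighbours Bak1 and Bid, Bid and Bad, Bik and Bmf, and Bmf and Bcl2l11 overlapped in their ranges, and in Wtapflox/flox livers only Bmf and Bcl2l11 did.

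The summed level of the 9 members was 91.1 ± 8.45 FPKM in Wtap-HKO and 74.0 ± 3.54 FPKM in Wtapflox/flox livers (SD, n = 3 each). Mcl1 made up 54.6 ± 0.317% of this sum in Wtap-HKO and 54.5 ± 0.835% in Wtapflox/flox livers. The ranges of the Mcl1 share overlapped. Bak1 made up 8.74, 8.34 and 8.48% in Wtap-HKO livers, against 5.55, 5.79 and 6.38% in Wtapflox/flox livers. Bad made up 8.07, 6.15 and 6.55% in Wtap-HKO livers, against 9.22, 11.2 and 10.3% in Wtapflox/flox livers. The Bak1 share was thus above, and the Bad share below, in every Wtap-HKO liver, with no overlap, and the shares of the other 7 members overlapped. The pro-survival members together held 68.6 ± 2.47% in Wtap-HKO and 69.4 ± 1.08% in Wtapflox/flox livers. The BH3-only members held 22.9 ± 2.27% in Wtap-HKO and 24.7 ± 0.707% in Wtapflox/flox livers.

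**Figure D3:**
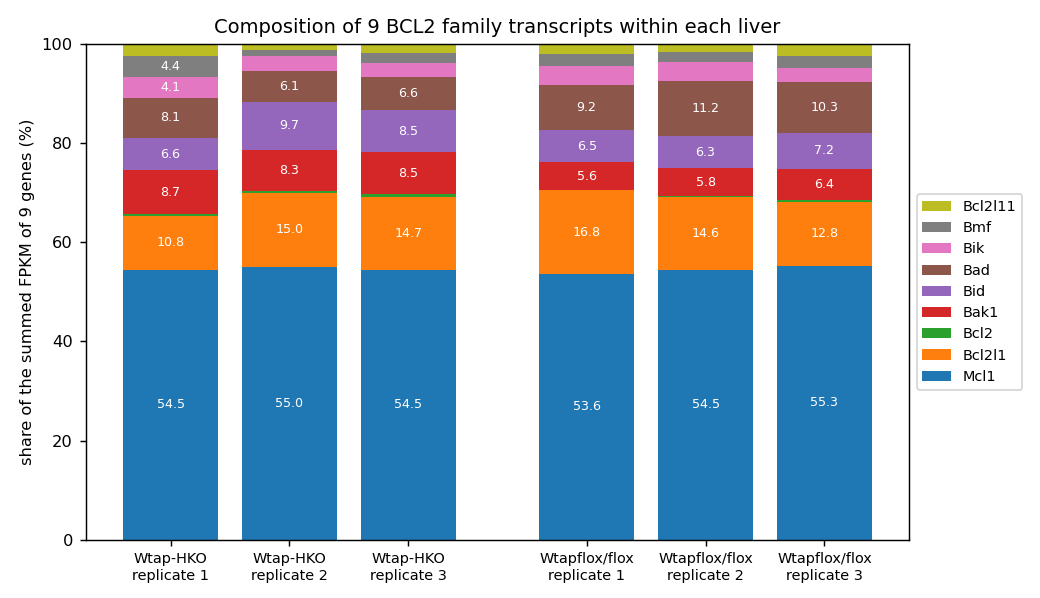
Stacked bars of the share of each member in the summed FPKM of the 9 genes (%), 1 bar per liver, with Wtap-HKO livers left of Wtapflox/flox livers. The Bak1 share is 8.34 to 8.74% in Wtap-HKO livers and 5.55 to 6.38% in Wtapflox/flox livers, and the Mcl1 share lies near 54.5% in both.

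The effector was also set against its inhibitors within each liver. The ratio of Bak1 to Mcl1 FPKM was 0.161, 0.152 and 0.156 in Wtap-HKO livers, against 0.104, 0.106 and 0.115 in Wtapflox/flox livers, 1.44 times as high on average and with no overlap. The ratio of Bak1 to Bcl2l1 averaged 0.648 ± 0.140 in Wtap-HKO and 0.409 ± 0.0854 in Wtapflox/flox livers (SD, n = 3 each), also with no overlap. The ratio of Bid to Bcl2l1 was 0.611, 0.649 and 0.582 in Wtap-HKO livers, against 0.384, 0.433 and 0.566 in Wtapflox/flox livers, and was higher in every Wtap-HKO liver. The ratios of Bid, Bcl2l11 and Bmf to Mcl1 and of Bad to Bcl2l1 overlapped. These ratios were chosen from the roles of the genes and carry no test.

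The genes whose pattern over the 6 livers was most like Bak1 were Arl8a, Leprotl1 and 1190002N15Rik, among 10320 protein-coding genes. The mean absolute difference of their centred log2(FPKM + 0.2) values from those of Bak1 was 0.0201, 0.0360 and 0.0399. Nothing is drawn from this about shared function or control.

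The BCL2 family genes that p53 is known to induce rose, with values beside the members. Bax, the other effector, was 22.7 ± 2.43 FPKM in Wtap-HKO and 10.2 ± 0.861 FPKM in Wtapflox/flox livers (log2 fold change 1.13, limma adjusted p = 6.36e-04). Bbc3, which encodes PUMA, was 4.84 ± 0.521 FPKM in Wtap-HKO and 3.17 ± 0.390 FPKM in Wtapflox/flox livers (0.58, adjusted p = 0.0141). Pmaip1, which encodes NOXA, was 1.14 ± 0.131 FPKM in Wtap-HKO and 0.369 ± 0.159 FPKM in Wtapflox/flox livers (1.26, adjusted p = 0.00756). The ratio of Bak1 to Bax was 0.343 ± 0.0191 in Wtap-HKO and 0.429 ± 0.0267 in Wtapflox/flox livers, lower in every Wtap-HKO liver.

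Of 13 other BCL2 family genes, 9 were tested, 3 were higher and 3 lower, with a median log2 fold change of -0.03. Among all tested genes 19.5% were higher and 20.7% lower. Bok, an effector-like gene, rose by 0.85 (8.94 ± 0.491 FPKM in Wtap-HKO and 4.93 ± 0.937 FPKM in Wtapflox/flox livers, limma adjusted p = 0.00469). Bnip3, which acts in mitophagy, was 25.8 ± 2.29 FPKM in Wtap-HKO and 74.0 ± 6.15 FPKM in Wtapflox/flox livers and fell by 1.51 on the log2 scale (limma adjusted p = 2.46e-04). It stayed lower on the TPM scale, while the lower calls of Bnip3l (log2 fold change -0.54) and Bcl2l13 (-0.40) turned to 0.041 and 0.17 there, which is -0.50 and -0.36 relative to the median of all genes. Bcl2a1a and Bcl2a1d were called higher on 42 and 72 reads in Wtap-HKO against 7 and 14 reads in Wtapflox/flox livers. These Bcl2a1 copies are near identical, so reads may be split among them, and they were named after their values were seen. Bcl2a1b had 20 reads in Wtap-HKO and 0 in Wtapflox/flox livers. Its mean of 0.197 FPKM missed the filter, so it was not tested on the deposited scale. With the Wtapflox/flox group set to an assumed floor of 3 reads in all, the fold was 4.37. That fold leaves out the counting error of the 20 reads.

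Of 8 genes of the death receptor arm that leads to BID, 3 were higher and 1 was lower. Their median log2 fold change was 0.30, and 19.5% of all tested genes were higher and 20.7% lower. Tnfrsf10b, a receptor for TRAIL, was 2.12 ± 0.399 FPKM in Wtap-HKO and 0.0973 ± 0.0433 FPKM in Wtapflox/flox livers (log2 fold change 2.96, limma adjusted p = 3.00e-04). Fadd, the adaptor of these receptors, was 4.12 ± 0.240 FPKM in Wtap-HKO and 2.60 ± 0.158 FPKM in Wtapflox/flox livers (0.63, adjusted p = 0.00443). Fas, the receptor for FasL, was higher (0.69, adjusted p = 0.0165), and this call was lost without Wtapflox/flox replicate 1 (adjusted p = 0.055). Cflar, an inhibitor of caspase 8, was 7.72 ± 0.574 FPKM in Wtap-HKO and 12.5 ± 0.595 FPKM in Wtapflox/flox livers (-0.69, adjusted p = 0.00202), and on the TPM scale it was not called (-0.11, or -0.64 relative to the median of all genes).

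Downstream of the mitochondria, 2 of 11 genes were higher and 1 was lower, with a median log2 fold change of 0.042. This compares with 19.5% of all tested genes higher and 20.7% lower. Apaf1, the scaffold of the apoptosome, was 1.89 ± 0.302 FPKM in Wtap-HKO and 0.503 ± 0.0207 FPKM in Wtapflox/flox livers (log2 fold change 1.56, limma adjusted p = 8.69e-04). Birc3, an inhibitor of apoptosis protein, was higher (0.61, adjusted p = 0.0161), a call lost without Wtap-HKO replicate 3 or Wtapflox/flox replicate 2 (adjusted p up to 0.0546). Xiap, which binds caspases, was 10.5 ± 0.938 FPKM in Wtap-HKO and 17.2 ± 1.13 FPKM in Wtapflox/flox livers (-0.70, adjusted p = 0.00236) and was not called on the TPM scale (-0.12, or -0.66 relative to the median of all genes). Cycs and Casp9 were not called (-0.12, adjusted p = 0.478, and 0.04, adjusted p = 0.796). On the TPM scale Cycs and Casp9 were called higher (limma adjusted p = 0.0158 and 0.00562). Relative to the median of all genes they were at -0.08 and 0.07.

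Of 10 tested genes for partners of the member proteins, 1 was higher and 2 were lower, with a median of -0.18. The shares over all tested genes were 19.5% higher and 20.7% lower. Dynll1, a dynein light chain that binds BIM, was 13.1 ± 1.19 FPKM in Wtap-HKO and 4.89 ± 0.515 FPKM in Wtapflox/flox livers (log2 fold change 1.39, limma adjusted p = 3.82e-04). Dynll2, the light chain that binds BMF, was 37.5 ± 3.27 FPKM in Wtap-HKO and 67.2 ± 10.4 FPKM in Wtapflox/flox livers (-0.83, adjusted p = 0.00334). On the TPM scale Dynll1 was called higher and Dynll2 was not called (-0.25), and relative to the median of all genes they were at 1.42 and -0.78. Usp9x, a deubiquitinase of MCL-1, was lower (-0.48, limma adjusted p = 0.0368). This call was lost when any of the libraries but Wtap-HKO replicate 3 was left out (adjusted p up to 0.102). It was also lost with no filter on low values and with eBayes without a trend. On the TPM scale the Usp9x value turned to 0.094, or -0.44 relative to the median of all genes.

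**Figure D4:**
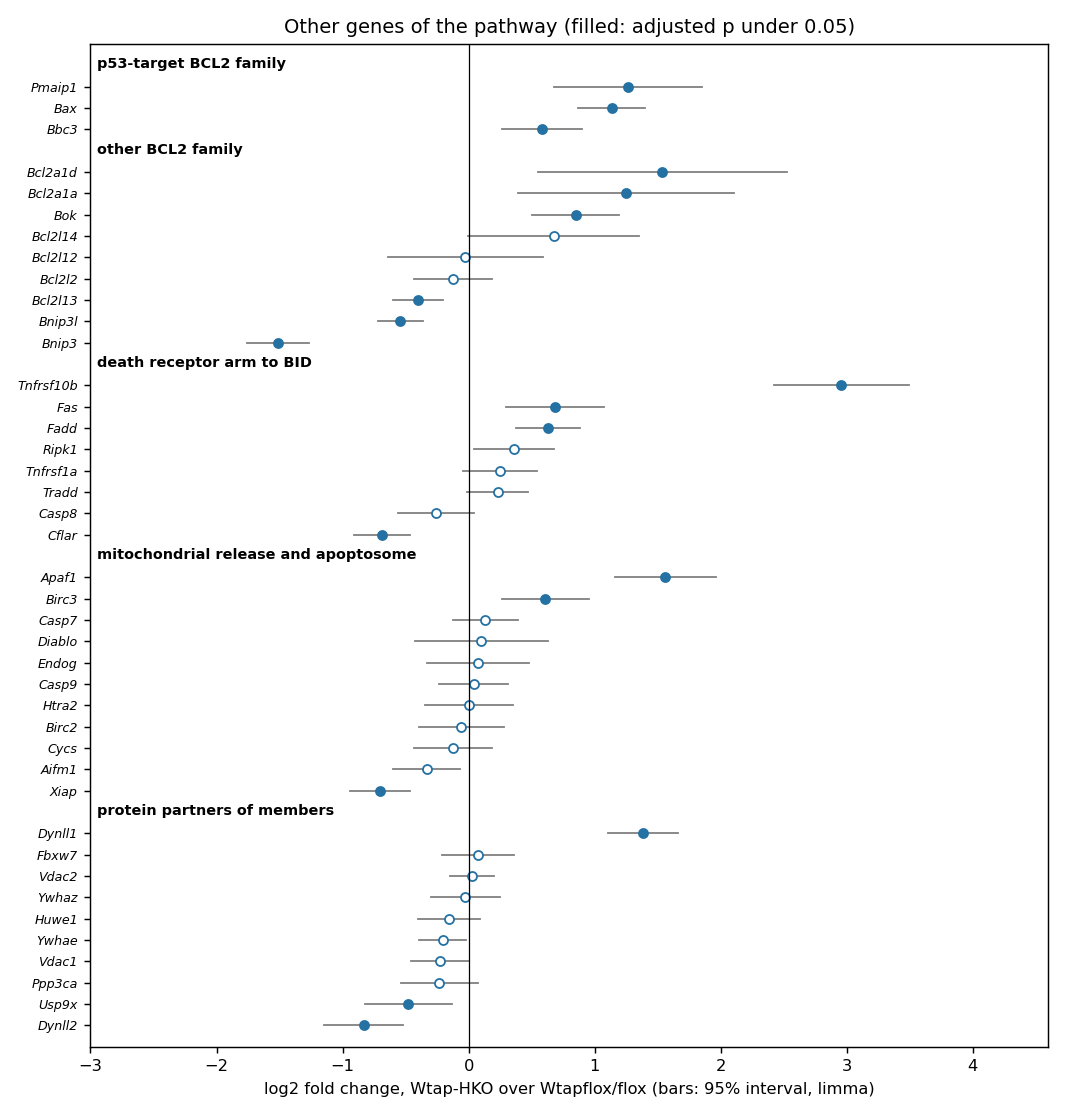
Log2 fold change (Wtap-HKO minus Wtapflox/flox) of the tested genes of the pathway that are not among the 9, by list, with 95% intervals (lines) and called genes filled. Tnfrsf10b (2.96) and Apaf1 (1.56) lie far to the higher side, Bnip3 (-1.51) far to the lower side.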

How the data were processed

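RNA from 6 livers was sequenced, 3 of Wtap-HKO and 3 of Wtapflox/flox mice, with groups and replicate numbers from the sample labels. The authors aligned reads to GRCm38.p6 with TopHat2, counted them with HTSeq 0.6.1 and deposited the counts as FPKM per gene. The annotation release, the strand setting and the FPKM tool were not given in the sources used here. Deposited FPKM times gene length gave whole reads for 100% of values (tolerance 0.01), summing to 15559250 to 18510477 per library. The size the authors divided by was 1.17 to 1.24 times this sum in Wtap-HKO and 0.834 to 0.846 times in Wtapflox/flox, so a scaling between libraries was already in the values. Within groups libraries correlated at 0.955 to 0.967, between groups at 0.885 to 0.909. The table held 8 emptied lines, not analysed here.

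The test was limma 3.58.1 in R 4.3.3 (lmFit, and eBayes with a trend) on log2(FPKM + 0.2), fitted to the 16547 genes whose mean reached 0.2 FPKM. P-values were two-sided and Benjamini-Hochberg adjusted across these genes, with a threshold of 0.05. The pseudocount of 0.2 makes the changes of low genes look smaller. The fit was repeated with a pseudocount of 1 or 0.05, with the filter at 1 FPKM or absent, on the TPM scale, after median-of-ratios scaling, with the trend omitted, with the replicate block, by voom on rebuilt reads, for protein-coding genes alone and with each library left out. Members, lists, tests and the naming rule were chosen with earlier results of these data known. The rule names the 9 members, Wtap, Bax, Bbc3 and Pmaip1, up to 4 called genes of at least 1 FPKM per other list by size of change, and the 3 genes most like Bak1. Cycs, Casp9, Trp53 and the Bcl2a1 copies were named besides it, after their values were seen. A gene of the list downstream of the mitochondria is not reported here and was left out of its counts. Python 3.11.15, pandas 2.3.3, numpy 2.4.6 and matplotlib 3.10.9 were used.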

Additional observations from a re-analysis of the deposited data

How the results depend on the processing

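Of the 9 members, 2 were called higher, 1 with no filter on low values, 6 on the TPM scale, and 4 each with voom on rebuilt reads and over protein-coding genes alone, and leaving out each library gave 1 to 3. No setting called a member lower. Bak1 was called under all of them. The TPM scale called 8167 of all genes higher and 999 lower, against 3222 and 3431, and 89.1% of its calls were higher, against 48.4%. Without Wtap-HKO replicate 3, 2143 of all 16547 tested genes were called higher. On the TPM scale the log2 fold changes of Bad, Bnip3l, Bcl2l13 and Usp9x were 0.31, 0.041, 0.17 and 0.094, but relative to the median of all genes on that scale they were -0.23, -0.50, -0.36 and -0.44, the sign of the deposited scale. For Bcl2l11 and Bmf leaving out single libraries gave -0.084 to 0.25 and -0.14 to 0.56. As shares of reads in place of FPKM, the Wtap-HKO livers had 53.4% Mcl1, 17.7% Bcl2l1, 5.87% Bak1, 3.97% Bad and 72.3% pro-survival members. The Wtapflox/flox livers had 53.5% Mcl1, 19.4% Bcl2l1, 4.09% Bak1, 5.91% Bad, 73.6% pro-survival and 22.4% BH3-only members. As with FPKM, Bak1 and Bad were the only members without overlap. The shift follows from gene length, which reads are not divided by. With the replicate number as a block, 2 members were called higher, and of all genes 3057 higher and 3508 lower. Deviations of same-numbered libraries correlated at 0.0146 to 0.0642, and those of libraries with unlike numbers at -0.0626 to 0.0224. Wtapflox/flox replicate 1 correlated best with another number, and Wtapflox/flox replicates 2 and 3 with their own. With 3 libraries a group, these values cannot tell whether the numbers pair the livers. For 25 other named genes, 378 of 399 alternative values kept their direction and call, 17 lost the call, 1 gained it and 3 reversed. Apart from the scaling and gene length, the cause was not tested. With 3 livers a group, changes of any size within the intervals of Bcl2l1, Bik, Bmf and Bcl2l11 remain possible, and Bcl2 rests on few reads.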

Other observations

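Of 12 transcription factors known to act on the 9 genes, 3 were higher and 2 lower in Wtap-HKO livers. Their median log2 fold change was 0.35, and 19.5% of all tested genes were higher and 20.7% lower. Jun, a subunit of AP-1, was 21.4 ± 2.87 FPKM in Wtap-HKO and 5.96 ± 0.570 FPKM in Wtapflox/flox livers (log2 fold change 1.80, limma adjusted p = 2.70e-04). E2f1, a factor of cell cycle entry, was 2.75 ± 0.590 FPKM in Wtap-HKO and 0.990 ± 0.173 FPKM in Wtapflox/flox livers (1.30, adjusted p = 0.00319). Nfkb1 was higher (0.40, adjusted p = 0.0235), a call lost without Wtap-HKO replicate 3 or Wtapflox/flox replicates 1 or 3 (adjusted p up to 0.0834). Foxo3 was 8.27 ± 0.642 FPKM in Wtap-HKO and 12.8 ± 1.32 FPKM in Wtapflox/flox livers (-0.62, adjusted p = 0.00572) and was not called on the TPM scale (-0.04, or -0.58 relative to the median of all genes). Trp53, which encodes p53, was not called (0.40, adjusted p = 0.0525). On the TPM scale Trp53 was called higher (0.97, limma adjusted p = 9.00e-04), or 0.43 above the median of all genes.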
